A study of Mus musculus with 24 samples.

Results

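Forelimb cartilage of the mouse embryo was profiled for open chromatin and for the histone mark H3K27ac, and the 2 maps were set against each other. The peaks described are those of the authors' combined forelimb lists, 44475 ATAC peaks and 39914 H3K27ac peaks, together with the lists of the 3 ATAC libraries (56039, 70636 and 47152 peaks for replicates 1, 2 and 3) and of the 3 H3K27ac libraries (75233, 75310 and 73037 peaks). All peak lists of the series held 1127843 peaks on the autosomes and X. An ATAC peak was called acetylated, or marked, when it shared at least 1 bp with a peak of the combined forelimb H3K27ac list, and an H3K27ac peak was called open when it shared at least 1 bp with a combined ATAC peak.

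All forelimb libraries came from wild-type C57BL/6 embryos at E14.5, from cartilage freed of the connective tissue around it and digested to cells. The series maps candidate enhancers of jaw and limb cartilage, and its Meckel's cartilage (MC) libraries, from wild-type C57BL/6 embryos of the same age, serve here only for comparison, with 2 libraries of wild-type C57BL/6 mandibular processes at E12.5. ATAC-seq marks chromatin that a transposase can enter, and CUT&Tag for H3K27ac uses an antibody to bring a transposase to acetylated nucleosomes. The labels do not say whether the replicates are separate embryos, litters or pools, so the p-values measure only the spread between these libraries, which may be technical.

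Open chromatin is where transcription factors and the transcription machinery reach the DNA, at promoters, enhancers, silencers and insulator sites. H3K27ac is laid down on the nucleosomes beside active promoters and enhancers by the acetyltransferases p300 and CBP, and Polycomb complexes can put methylation on the same lysine. An open site without the mark can therefore be a poised, inactive or insulating element. Chondrocytes of the limb depend on Sox9 with Sox5 and Sox6, which bind enhancers of the collagen and proteoglycan genes of cartilage matrix.

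The promoters of 7 genes show the kinds of site compared below, and the 250 bases before a transcription start are printed for each from RefSeq (GRCm38.p6, the mm10 build), 5′ to 3′ on the gene's strand, with each CpG dinucleotide in capitals. Acan (chr7:79052976-79053225, plus strand), which encodes the proteoglycan aggrecan, and Gli3 (chr13:15463473-15463722, plus strand), a transcription factor of the hedgehog pathway, had promoters that were open and acetylated and rich in CpG. Hapln1 (chr13:89540386-89540635, plus strand), the link protein of the cartilage matrix, was open and acetylated with few CpG. Hoxd13 (chr2:74667975-74668224, plus strand) and Msx1 (chr5:37824586-37824835, minus strand), transcription factors of the distal and marginal limb bud, were open without the mark. Col10a1 (chr10:34389731-34389980, plus strand), the collagen of hypertrophic chondrocytes, lay in H3K27ac without an ATAC peak. Ihh (chr1:74951673-74951922, minus strand), the hedgehog ligand of prehypertrophic chondrocytes, was in neither combined list.
Acan: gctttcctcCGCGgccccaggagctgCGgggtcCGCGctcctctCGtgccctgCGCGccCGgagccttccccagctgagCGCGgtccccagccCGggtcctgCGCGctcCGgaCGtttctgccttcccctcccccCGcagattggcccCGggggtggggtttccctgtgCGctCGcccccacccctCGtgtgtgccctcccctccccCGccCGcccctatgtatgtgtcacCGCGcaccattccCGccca
Gli3: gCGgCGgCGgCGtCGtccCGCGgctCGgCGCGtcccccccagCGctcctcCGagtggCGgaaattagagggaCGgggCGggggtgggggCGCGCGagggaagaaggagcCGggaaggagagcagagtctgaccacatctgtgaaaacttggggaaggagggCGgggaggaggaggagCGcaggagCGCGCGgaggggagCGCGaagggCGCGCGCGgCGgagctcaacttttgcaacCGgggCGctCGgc
Hapln1: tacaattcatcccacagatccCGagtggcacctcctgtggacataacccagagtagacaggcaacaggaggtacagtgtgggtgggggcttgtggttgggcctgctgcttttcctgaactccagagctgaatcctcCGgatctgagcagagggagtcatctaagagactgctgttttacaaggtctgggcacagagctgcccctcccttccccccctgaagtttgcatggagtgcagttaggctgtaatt
Hoxd13: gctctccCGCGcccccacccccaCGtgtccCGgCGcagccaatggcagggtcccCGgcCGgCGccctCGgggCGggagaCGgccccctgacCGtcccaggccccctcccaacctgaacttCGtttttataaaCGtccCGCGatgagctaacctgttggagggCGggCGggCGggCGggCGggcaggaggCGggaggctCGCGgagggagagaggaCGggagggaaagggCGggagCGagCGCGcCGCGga
Msx1: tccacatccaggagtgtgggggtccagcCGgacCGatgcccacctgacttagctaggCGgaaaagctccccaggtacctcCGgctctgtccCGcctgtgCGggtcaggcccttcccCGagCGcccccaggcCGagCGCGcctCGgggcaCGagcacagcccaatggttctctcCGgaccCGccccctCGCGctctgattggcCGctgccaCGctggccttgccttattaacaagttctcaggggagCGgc
Col10a1: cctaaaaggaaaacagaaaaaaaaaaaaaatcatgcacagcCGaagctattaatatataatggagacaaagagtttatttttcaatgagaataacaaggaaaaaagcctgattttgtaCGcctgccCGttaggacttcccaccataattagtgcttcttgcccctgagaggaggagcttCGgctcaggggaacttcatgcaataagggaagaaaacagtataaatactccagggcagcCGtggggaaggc
Ihh: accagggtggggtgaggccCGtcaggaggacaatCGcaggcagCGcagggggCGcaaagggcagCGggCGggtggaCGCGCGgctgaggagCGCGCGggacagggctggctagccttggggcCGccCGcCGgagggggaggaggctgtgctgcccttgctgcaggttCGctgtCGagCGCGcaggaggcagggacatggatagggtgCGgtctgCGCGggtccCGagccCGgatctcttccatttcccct

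These stretches held 26 CpG in Acan, 34 in Gli3, 2 in Hapln1, 31 in Hoxd13, 20 in Msx1, 5 in Col10a1 and 24 in Ihh. The letters TATAAA, read on both strands, occurred in those of Hoxd13 and Col10a1. The promoter windows of Acan, Gli3, Hapln1 and Msx1 overlapped an ATAC peak in all 3 libraries, those of Hoxd13 and Ihh in replicates 2 and 3 and not in replicate 1, and that of Col10a1 in none of the 3. The CpG-rich group thus held open promoters with and without the mark, and the 2 CpG-poor ones, Hapln1 and Col10a1, both carried it.

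The H3K27ac list was broad and the ATAC list narrow. H3K27ac peaks had a median width of 7356 bp and covered 454 Mb, 17.3% of the chromosomes' extent, while ATAC peaks had a median width of 765 bp and covered 41.0 Mb, 1.56%. Of the bases in ATAC peaks 72.0% lay inside H3K27ac, and of the bases in H3K27ac 6.5% lay inside ATAC peaks. The single H3K27ac libraries stood apart from their combined list: 11.4 ± 1.05% of their peaks met it (SD, n = 3), below the 17.3% of the extent that it covers. Their peak maxima reached at most 10, with a median of 2, against 49 and 18 in the combined list, and they met 5.01 ± 0.606% of the combined ATAC peaks, or 2.63% where the ATAC midpoint had to lie inside. Of ATAC peaks called acetylated, single H3K27ac libraries met 9.71 ± 1.26% within 1 kb of a gene end and 3.89 ± 0.472% farther away. Of unmarked ones they met 5.68 ± 0.854 and 2.80 ± 0.246% (SD, n = 3). Most acetylated calls thus had no peak in a given single H3K27ac library, and these libraries separated the 2 classes only weakly. All classes below rest on the combined list, which has no replicate spread. The spread given below is that of the 3 ATAC libraries. Read depth is unknown, and list length is no measure of it, since the single H3K27ac lists were longer than the combined one.

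Marker genes of the labelled tissue and of other cells were described, after each peak had been given to 1 gene by its midpoint. That gene was the shortest one around it, or failing that the nearest gene up to 1 Mb away. All 8 cartilage markers (Sox9, Col2a1, Acan, Matn1, Col9a1, Col11a2, Hapln1 and Cnmd) and all 4 forelimb markers (Tbx5, Hoxd9, Hoxa9 and Hoxd10) had an acetylated ATAC peak, against 53.8% of all genes. These markers were chosen with earlier results of these data known. Of limb patterning genes 23 of 31 had such a peak, of HoxA and HoxD genes 8 of 20, and of widely expressed reference genes 19 of 20. An acetylated ATAC peak alone therefore does not identify the tissue. H3K27ac covered 18.8 to 100% of the spans of the cartilage markers, with a median of 84.9%. Markers of other cells were marked in part: 2 of 4 for skeletal muscle, 3 of 4 each for endothelium, blood and epithelium, 1 of 4 for neurons and Schwann cells, and 1 of 3 each for tendon and joint had an acetylated ATAC peak. Their median span cover was 21.9% for muscle, 64.1% for endothelium, 2.81% for blood, 6.82% for epithelium, 11.8% for neurons and Schwann cells, 43.6% for tendon and 0% for joint. The spans of Myod1, Myf5, Ptprc, Gata1, Epcam, Elavl3, Stmn2, Tnmd, Prg4 and Osr2 were not touched by H3K27ac, although Ptprc and Epcam had 9 and 4 acetylated ATAC peaks assigned to them. The spans of Myog, Tie1, Krt5, Sox10, Scx and Gdf5 were covered to 100%, and that of Spi1 to 62.5%. The part of other cells in the results below was not tested.

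The first comparison asked how much of the open chromatin carried the mark. Of the combined ATAC peaks 28708 of 44475 (64.5%, 95% Wilson interval 64.1 to 65.0%, counting error only) were acetylated. Near a gene end, within 1 kb of either end of a protein-coding gene, 9928 of 13213 (75.1%) were acetylated, and farther away, at distal sites, 18780 of 31262 (60.1%). In the single libraries the acetylated share near gene ends was 75.9, 73.3 and 75.5% in replicates 1, 2 and 3, and that of distal peaks was 59.0, 55.6 and 58.6%. Replicate 2, which has the longest list, was lowest in both, and gene-end and distal shares did not overlap. In bulk tissue, a site marked in fewer cells and a site with less signal per cell cannot be told apart. The means were 74.9 ± 1.37 and 57.7 ± 1.84%, a difference of 17.2 ± 0.477 percentage points (SD, n = 3, two-sided exact sign-flip permutation p 0.25, adjusted p 0.25 over 10 tests). With 3 libraries this test cannot give a p below 0.25, and a comparison of 3 libraries with 3 cannot go below 0.1, so none of the 10 tests could pass 0.05.

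The acetylated share fell with distance from genes. In the libraries it was 74.9 ± 1.37% within 1 kb of a gene end, 67.8 ± 2.67% at 1 to 10 kb, 63.3 ± 1.97% at 10 to 50 kb, 58.2 ± 2.17% at 50 to 100 kb and 40.2 ± 1.05% at 100 to 500 kb (SD, n = 3). Beyond 500 kb it was 10.2 ± 0.574%, and 12.2% of the 655 combined peaks there (95% Wilson interval 9.92 to 14.9%). The order was the same in each library. Distal acetylated peaks lay a median of 24.3, 25 and 23.9 kb from a gene end in replicates 1, 2 and 3, and distal peaks without the mark 53.2, 46.9 and 48.7 kb. The difference was -25.2 ± 3.52 kb (acetylated minus not, SD, n = 3, two-sided exact sign-flip permutation p 0.25, adjusted p 0.25).

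**Figure D1:**
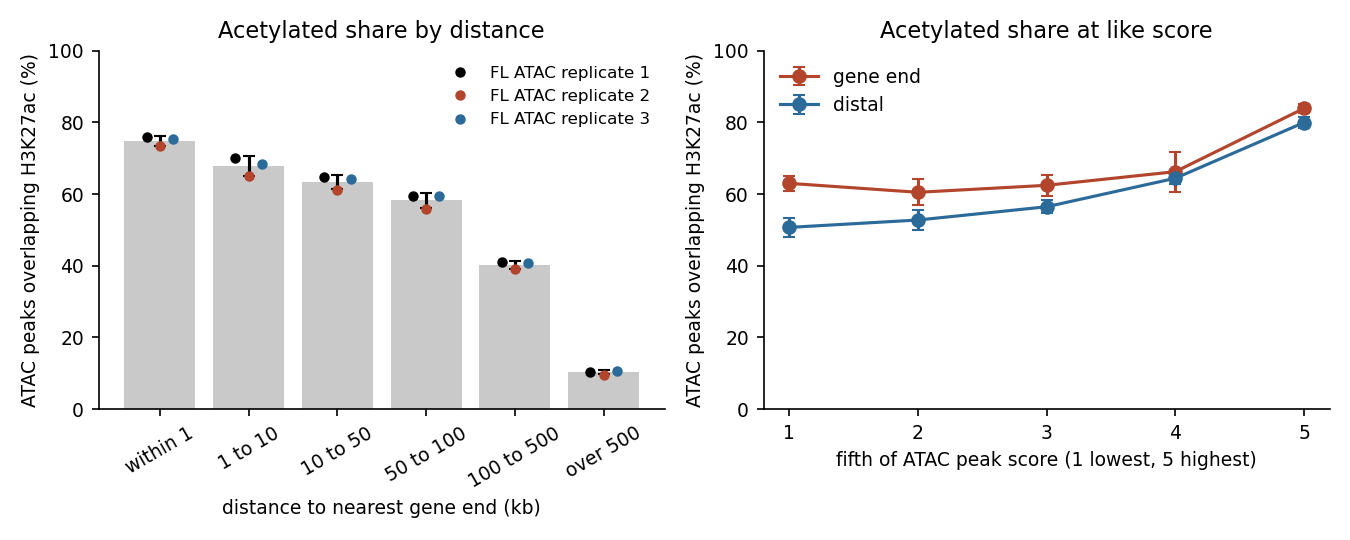
Share of forelimb ATAC peaks that overlap the combined H3K27ac list, as mean and SD of 3 libraries, by distance to the nearest gene end in kb (left, points are libraries) and by quintile of the authors' peak score for gene-end and distal peaks (right). The share falls from 74.9% within 1 kb to 10.2% beyond 500 kb, and at like score the gene-end and distal curves lie closer together than the overall 74.9 and 57.7%.

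Gene-end peaks are also the higher scored ones, so both kinds were set side by side within quintiles of the score over all peaks of a library. In the lowest quintile 63.0 ± 2.12% of gene-end and 50.7 ± 2.75% of distal peaks were acetylated. In quintile 4 the shares were 66.2 ± 5.57 and 64.4 ± 1.61%, and in the highest 83.9 ± 1.32 and 80.0 ± 1.48% (SD, n = 3). In the combined list quintiles 3 and 4 had the higher share at distal peaks (60.3 against 59.7% and 70.8 against 68.4%). The 17.2 points between gene-end and distal peaks were thus smaller where peaks of like score were compared.

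By the authors' score, acetylated distal peaks ranked higher than those without the mark, and they were wider. Their median score percentile within the library, where 100 is the highest score, was 45.5, 47.9 and 43.8 in replicates 1, 2 and 3, against 36.6, 36.4 and 34.2 for the others (difference 10.0 ± 1.35, SD, n = 3, two-sided exact sign-flip permutation p 0.25, adjusted p 0.25). Their median widths were 570, 603 and 735 bp against 491, 509 and 630 bp (difference 92.7 ± 13.1 bp, exact sign-flip permutation p 0.25, adjusted p 0.25). The acetylated peaks were higher in both measures in each library. Score and width are bound to each other, since the score is an area (Spearman correlation 0.809 across the combined peaks, which are not independent replicates). Ranked by −log10 p, the difference in percentile was 3.30 ± 5.72 (exact sign-flip permutation p 1). Its SD was above its mean, and the 3 libraries did not all go the same way. Ranked by score per bp, the difference was 2.66 ± 1.13 (exact sign-flip permutation p 0.25). Across quintiles of width the acetylated share of combined distal peaks went from 45.2 to 77.6%, while across quintiles of score per bp it was 61.8, 57.7, 57.2, 59.1 and 64.7%. At gene ends the share went from 57.7 to 91.5% across quintiles of width and from 61.4 to 85.5% across quintiles of score per bp.

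The second comparison asked how much of the acetylated chromatin held an open site. Of the combined H3K27ac peaks 18590 of 39914 (46.6%, 95% Wilson interval 46.1 to 47.1%) overlapped a combined ATAC peak. The share was 50.6, 56.7 and 46.4% against the lists of ATAC replicates 1, 2 and 3, 63.3% against any of them, and 20.7% when only the 50% of combined ATAC peaks with the higher scores were used. Among the 3 libraries it was highest for the longest list and lowest for the shortest. Near gene ends 9497 of 12514 H3K27ac peaks (75.9%) were open, and of distal ones 9093 of 27400 (33.2%).

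H3K27ac peaks with an ATAC peak were wider and lay nearer to genes. Against the 3 ATAC libraries, 48.4, 44.9 and 51.4% of the open ones lay near a gene end, and 13.9, 13.6 and 14.0% of those without ATAC (difference 34.4 ± 3.11 points, SD, n = 3, two-sided exact sign-flip permutation p 0.25, adjusted p 0.25). Median widths were 9137, 8997 and 9298 bp against 6612, 6483 and 6650 bp (difference 2562 ± 74.4 bp, exact sign-flip permutation p 0.25, adjusted p 0.25). Median percentiles of total signal were 65.3, 63.8 and 66.2 against 35.9, 33.8 and 37.0 (difference 29.5 ± 0.466, exact sign-flip permutation p 0.25, adjusted p 0.25). The values of the open and the other H3K27ac peaks did not overlap between libraries in these 3 measures. The 3 values of each measure share one H3K27ac list, so their spread is that of the ATAC lists alone. A wider H3K27ac peak meets an ATAC peak and a gene end more easily, since any base counts for both. Width also enters total signal, so these differences are not independent of the overlap rule. How much of them follows from width was not tested.

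The share of open H3K27ac peaks spanned a wider range across their highest signal than across their width. Across quintiles of the highest signal 12.2, 21.9, 37.2, 66.3 and 94.5% of combined H3K27ac peaks held an ATAC peak, from peaks of at most 14 to peaks of 24 to 49. Across quintiles of width the shares were 44.3, 30.4, 36.1, 49.0 and 73.2%, so the narrowest peaks were open more often than those of the next 2 quintiles. In the highest quintile of signal 98.2% of gene-end and 84.6% of distal peaks were open, and in the lowest 17.0 and 11.6%. A single ATAC peak was held by 13235 H3K27ac peaks, and 5 or more by 579. Where there was 1 ATAC peak, the place of highest H3K27ac signal lay inside it in 71.8% of cases, at a median of 319 bp from its summit, while the centre of the same H3K27ac peaks was a median of 1468 bp from the summit.

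**Figure D2:**
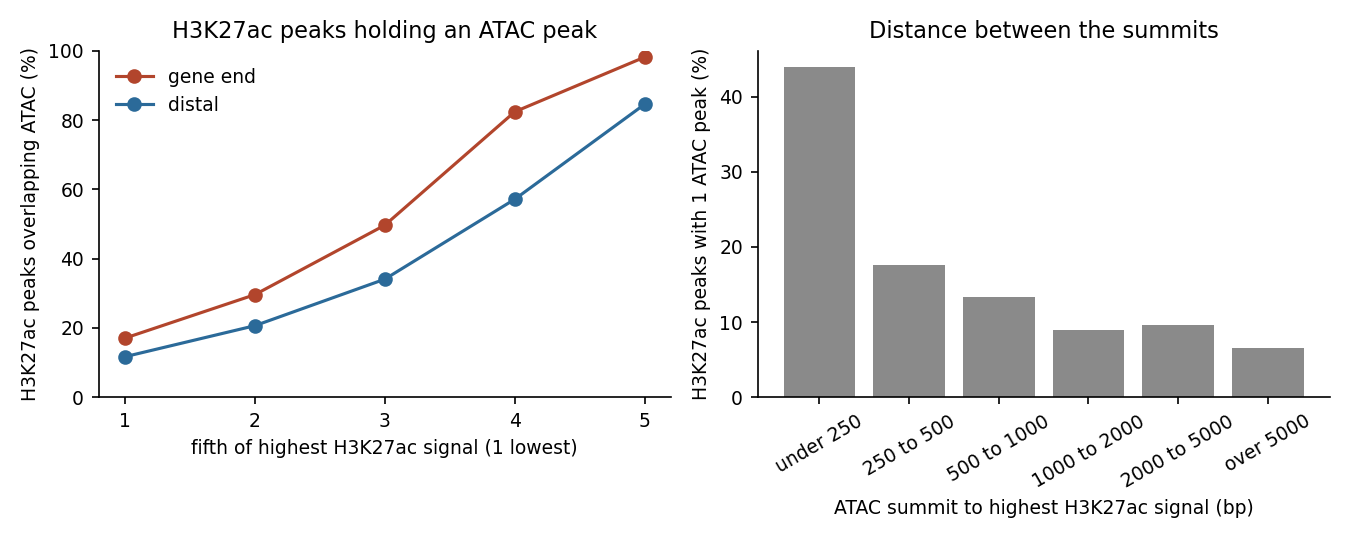
Share of combined forelimb H3K27ac peaks that overlap a combined ATAC peak, by quintile of their highest signal, near gene ends and at distal sites (left), and distance in bp from the ATAC summit to the place of highest H3K27ac signal for the 13235 peaks with 1 ATAC peak (right). The share rises from 17.0 to 98.2% near gene ends and from 11.6 to 84.6% at distal sites, and 44.0% of the summits lie within 250 bp of the highest signal.

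The H3K27ac peaks of highest total signal that hold ATAC peaks included those on Zmiz1 (chr14:25436307-25682519, 246 kb, 11 ATAC peaks), a transcriptional coregulator, on Tns1 (chr1:73899748-74114510, 215 kb, 23 ATAC peaks), which links actin to integrins, on Ndst1 (chr18:60587689-60789813, 202 kb, 20 ATAC peaks), a heparan sulfate enzyme, and on Cmip (chr8:117255692-117460960, 205 kb, 9 ATAC peaks). The 5 strongest domains without any combined ATAC peak were shorter, and lay on Evl (chr12:108608831-108701549, 92.7 kb), an actin regulator, Vav2 (chr2:27260895-27349951, 89.1 kb), a guanine nucleotide exchange factor, Mad1l1 (chr5:140150699-140241724, 91.0 kb), a spindle checkpoint protein, Rbm19 (chr5:120135104-120211778, 76.7 kb) and Hipk2 (chr6:38782785-38854399, 71.6 kb), a kinase. The named domains lay in the top percentile of total signal, and their highest signals were 32 to 40 with ATAC and 22 to 31 without.

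By gene, 11645 of 21631 protein-coding genes (53.8%) had at least 1 acetylated ATAC peak, 3153 (14.6%) had ATAC peaks of which none was acetylated, 1295 (5.99%) had H3K27ac alone and 5538 (25.6%) had neither. Of all ATAC peaks assigned to a gene 64.7% were acetylated, and 62.2 ± 2.31% in the single libraries (SD, n = 3). Counts over gene lists are set beside these shares as descriptions, with no test.

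Cartilage matrix genes and their regulators were nearly all open and acetylated. Of 25 genes 24 had an acetylated ATAC peak (53.8% of all genes), and 134 of their 181 ATAC peaks (74.0%) carried the mark, 71.6, 70.2 and 77.4% in replicates 1, 2 and 3. The exception in the combined list was Pcolce2, a procollagen processing enhancer, with 0 acetylated and 3 unmarked ATAC peaks. In the libraries it had 1, 3 and 1 acetylated and 4, 5 and 1 unmarked ones, and 25, 25 and 24 of the 25 genes had an acetylated peak. At several matrix genes each ATAC peak overlapped H3K27ac. Where 1 broad domain covers a gene, every ATAC peak inside it counts as acetylated. Such counts do not show a separate mark at each site. Col2a1, the main collagen of cartilage, had 8, 9 and 4 acetylated ATAC peaks in replicates 1, 2 and 3 and none without the mark, and its whole span lay in an H3K27ac domain of 51.4 kb. Acan had 9, 8 and 6 acetylated peaks and none without the mark, with 89.8% of its span covered. Col11a2, another cartilage collagen, had 5, 3 and 2 with none unmarked, and its whole span lay in a domain of 53.0 kb. Wwp2, the ubiquitin ligase gene that hosts the cartilage microRNA miR-140, had 11, 12 and 8 with none unmarked, and Chst11, which sulfates chondroitin, had 16 acetylated and 0 other peaks in the combined list.

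At the Sox trio marked and unmarked open sites stood side by side. Sox9, the master regulator of chondrocytes, had 12, 14 and 10 acetylated and 8, 11 and 3 unmarked ATAC peaks in replicates 1, 2 and 3. Sox5 had 23, 23 and 17 acetylated and 12, 18 and 8 unmarked ones, and Sox6 had 20, 29 and 20 against 8, 15 and 4. Acetylated peaks outnumbered the others in each library at all 3 genes, as they did over all genes, where 63.5, 59.6 and 63.6% of the peaks were acetylated in replicates 1, 2 and 3. In the combined list Sox9 had 7 and 5, or 4 and 3 when peaks were assigned within 100 kb only, since part of these sites lie in the gene-poor flanks. The highest scored distal acetylated peak assigned to Sox9 was chr11:112620524-112621941, 160 kb from the nearest gene end, in an H3K27ac peak of 3.64 kb. The highest scored one without the mark was chr11:112543417-112543870, 238 kb from a gene end. Their score percentiles in replicates 1, 2 and 3 were 56.7, 86.6 and 33 for the first and 72.0, 51.6 and 42.4 for the second, so that neither was the higher one in every library.

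**Figure D3:**
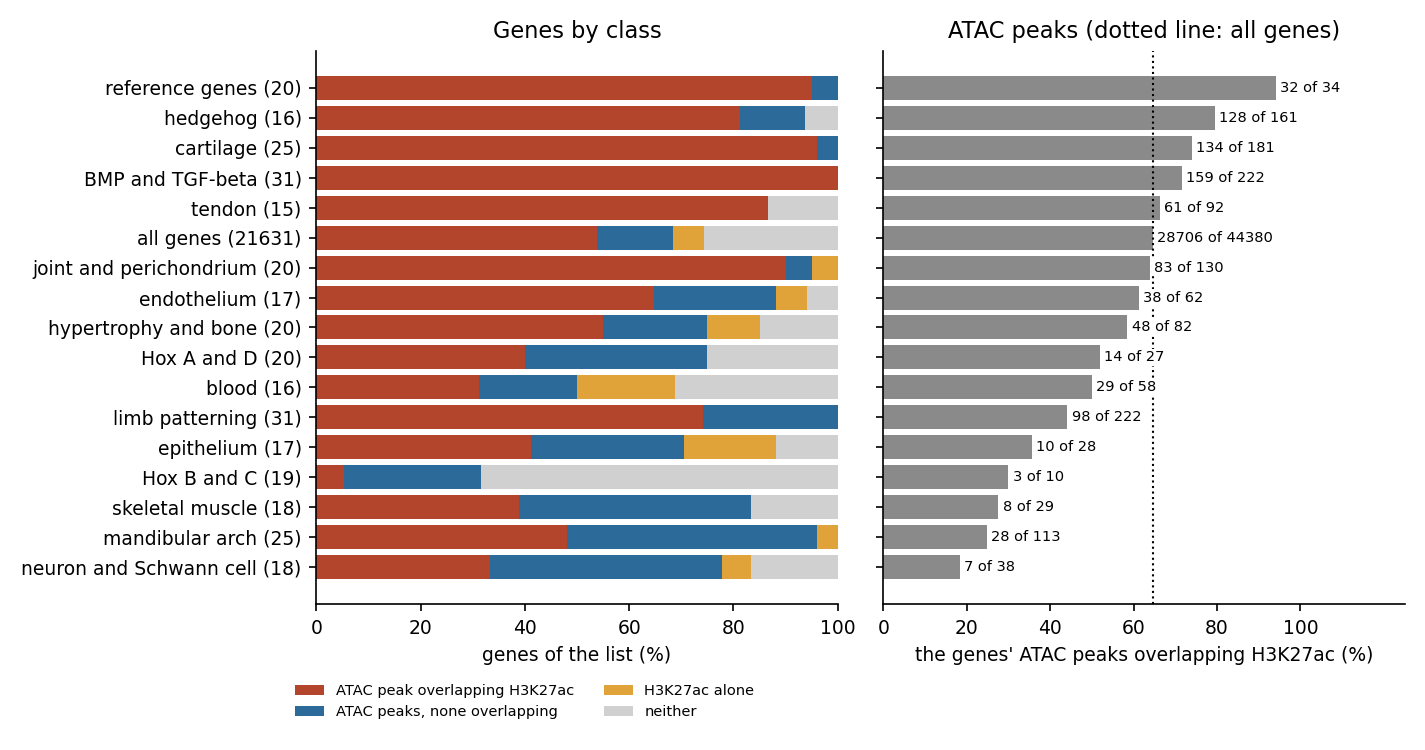
Classes of genes in each list as percent of the list's genes (left, number of genes in brackets) and percent of the genes' combined ATAC peaks that overlap H3K27ac (right, with counts). The dotted line marks 64.7% over all genes, and the lists lie between 18.4% for neuron and Schwann cell genes and 94.1% for reference genes.

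Genes of hypertrophy and bone fell into all 4 classes, with an acetylated ATAC peak about as often as all genes. Of 20 genes 11 had an acetylated ATAC peak (53.8% of all genes) and 4 had ATAC peaks without the mark (14.6%). H3K27ac alone was found at 2 (5.99% of all genes) and neither at 3 (25.6%). Of their peaks 48 of 82 (58.5%) were acetylated, against 64.7% over all genes. Pth1r, the receptor that holds back hypertrophy, had 10, 11 and 11 acetylated ATAC peaks in replicates 1, 2 and 3, none without the mark, and a span wholly inside H3K27ac. Runx2, which drives hypertrophy and bone formation, had 8, 9 and 9 acetylated and 10, 10 and 6 unmarked peaks. Sp7, the osteoblast factor osterix, had 1, 6 and 5 acetylated and 1, 1 and 1 unmarked. Col10a1 had no ATAC peak in any library and lay in an H3K27ac peak of 13.1 kb that covered 93.6% of its span. Alpl, the alkaline phosphatase of mineralizing cells, also had H3K27ac alone in the combined lists, 47.8 kb, and 1, 4 and 0 acetylated ATAC peaks in the single libraries. Ihh, Ibsp and Mmp13, a hedgehog ligand, a bone sialoprotein and a collagenase, had neither in the combined lists, although Ihh had 0, 2 and 2 and Mmp13 had 1, 0 and 1 unmarked ATAC peaks in the libraries. Dlx3, an osteoblast transcription factor, had 3 ATAC peaks in the combined list and none was acetylated.

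Limb patterning genes had many open sites without the mark. All 31 had an ATAC peak, against 14798 of all 21631 genes, with a median of 6 per gene against 1 over all genes. An acetylated one was present at 23 (53.8% of all genes) and absent at 8 (14.6% of all genes). Of their peaks 98 of 222 (44.1%) were acetylated, against 64.7% over all genes. In replicates 1, 2 and 3 the share was 39.7, 37.6 and 40.9%. Peaks were assigned from up to 1 Mb away, and the acetylated share fell with distance from genes. The part of distance in the counts and share of this list was not tested. Tbx5, which starts the forelimb bud, had 4, 7 and 6 acetylated and 4, 6 and 2 unmarked peaks, with 88.1% of its span in H3K27ac. Shox2, which shapes the proximal limb bones, had 7, 6 and 5 against 3, 2 and 1, with its whole span covered. Hand2, an early posterior limb factor, went the other way, with 4, 5 and 4 acetylated and 18, 17 and 12 unmarked peaks in each library, although its span was wholly covered. In the combined list its 4 gene-end peaks carried the mark, while 1 of its distal peaks did and 12 did not. Meis1, a proximal limb factor, had 2 acetylated and 16 unmarked peaks in the combined list, and Meis2 had 0 and 8. Genes without an acetylated peak in the combined list included Meis2, Sall1, Sall4, Shh, Msx1, Msx2 and Fgf10, genes of early limb bud signalling, outgrowth and patterning. Of these, some had acetylated peaks in single libraries: Sall1 had 1, 2 and 1, Msx2 had 1, 2 and 0, and Shh had 0, 1 and 0 in replicates 1, 2 and 3. Meis2, Sall4, Msx1 and Fgf10 had none in any library.

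Msx1 had 3, 13 and 6 ATAC peaks in replicates 1, 2 and 3 and none was acetylated, and Fgf10, the growth factor of limb bud outgrowth, had 8 in the combined list with none acetylated.

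In the Hox clusters marked and unmarked genes lay near each other. Of 20 HoxA and HoxD genes 8 had an acetylated ATAC peak, 7 had ATAC peaks without the mark and 5 had neither (53.8, 14.6 and 25.6% of all genes). In HoxA the acetylated ones were Hoxa3, Hoxa7, Hoxa9, Hoxa10 and Hoxa11, and in HoxD they were Hoxd9, Hoxd10 and Hoxd11. Hoxa10 had 2, 5 and 4 acetylated ATAC peaks in replicates 1, 2 and 3 and none unmarked, inside an H3K27ac domain of 38.7 kb. At the digit end of both clusters the mark was missing from most open sites: Hoxd13 had 1, 3 and 1 unmarked and no acetylated peaks, Hoxd12 had 1 unmarked peak in the combined list, and Hoxa13 had 0, 5 and 0 unmarked and 1, 0 and 0 acetylated peaks. Hoxa5, Hoxd1 and Hoxd3, toward the other end, were open without the mark. Hox genes lie close together, so a peak can belong to a neighbour of the gene it is assigned to. Of 19 HoxB and HoxC genes, 13 had neither and 1 had an acetylated ATAC peak.

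Genes of the mandibular arch, a face programme, were open in the limb, but few of their open sites were marked. Of 25 genes 24 had an ATAC peak, against 14798 of all 21631 genes. An acetylated one was present at 12 of the 25, near the 53.8% of all genes. Of their peaks 28 of 113 (24.8%) were acetylated, 25.5, 22.3 and 24.4% in replicates 1, 2 and 3. These shares lay below the 62.2 ± 2.31% of all genes in each library. The part of distance from genes in them was not tested. Tfap2a and Tfap2b, transcription factors of face and crest, had 5 and 3 ATAC peaks in the combined list with none acetylated. Dlx6 had 5 and Pax9 had 4 with none acetylated. Ednra, the endothelin receptor of the arch, had 3 acetylated and 8 unmarked, and Six2 had 3 and 7. Dlx3 stands in this list as well as in that of hypertrophy and bone.

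Hedgehog genes were read by role, with no test between roles. Of the ligands, Shh and Dhh had 2 and 1 ATAC peaks in the combined list with none acetylated, and Ihh had none. All of the 13 other genes had an acetylated ATAC peak (53.8% of all genes). Over the 16 genes 128 of 161 peaks (79.5%) were acetylated, 78.5, 79.2 and 74.0% in replicates 1, 2 and 3, against 63.5, 59.6 and 63.6% over all genes. The receptor Ptch1 had 12, 12 and 7 acetylated and 4, 3 and 3 unmarked peaks, and the coreceptors Boc, Cdon and Gas1 had 14, 12 and 21 acetylated and 0, 0 and 3 unmarked ones in the combined list. The transcription factor Gli3 had 17, 28 and 18 acetylated and 11, 15 and 14 unmarked ones in the libraries, and Gli2 had 24 and 4 in the combined list. The inhibitor Hhip was the one gene outside the ligands with more unmarked than acetylated peaks, 8 against 2.

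All 31 genes of BMP and TGF-beta signalling had an acetylated ATAC peak (53.8% of all genes), and 159 of 222 peaks (71.6%) were acetylated, 69.2, 69.1 and 68.4% in replicates 1, 2 and 3. Among the ligands, Bmp2, Bmp4, Bmp6 and Gdf6 had 5, 4, 1 and 2 acetylated and 12, 5, 5 and 7 unmarked peaks in the combined list. The other ligands had more acetylated than unmarked peaks: Bmp5, Bmp7 and Gdf5 had 3, 13 and 1 against 2, 4 and 0, and Tgfb1, Tgfb2 and Tgfb3 had 3, 10 and 2 against 0, 4 and 0. The receptor Bmpr1b, which acts in digit cartilage, had 2 acetylated and 11 unmarked. The feedback inhibitors Smad6 and Smad7 had 14 and 13 acetylated peaks and none unmarked. The target genes Id1, Id2 and Id3 had 7, 10 and 6 acetylated and 0, 2 and 0 unmarked peaks.

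The lists of other tissues are set beside all genes, of which 53.8% had an acetylated ATAC peak and whose peaks were acetylated in 64.7% of cases. Joint and perichondrium genes had an acetylated ATAC peak in 18 of 20 cases and tendon genes in 13 of 15, with 63.8 and 66.3% of peaks acetylated, close to the share of all genes. Gdf5, the joint interzone ligand, had 0, 2 and 2 acetylated and 0, 1 and 0 unmarked peaks in replicates 1, 2 and 3, and Osr2, a joint factor, had 0 acetylated and 6 unmarked in the combined list. Endothelial genes had an acetylated peak in 11 of 17 cases (61.3% of peaks, also close to all genes), and blood genes in 5 of 16 (50%). Skeletal muscle genes had one in 7 of 18 cases (27.6% of peaks), epithelial genes in 7 of 17 (35.7%), and neuron and Schwann cell genes in 6 of 18 (18.4%). Reference genes, expressed in most cells, had one in 19 of 20 cases, and 32 of 34 peaks (94.1%) were acetylated. The exception was Hprt, with 1 unmarked peak.

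Among all genes those with the most acetylated distal ATAC peaks were Gse1, Tenm4, Aopep, Dnm3 and Grm4. Gse1, a chromatin-associated protein, had 49, 80 and 43 acetylated and 3, 6 and 5 unmarked ATAC peaks in replicates 1, 2 and 3. Tenm4, a teneurin adhesion receptor, had 47, 52 and 44 against 15, 20 and 8, and Grm4, a glutamate receptor gene, had 55, 43 and 49 against 1, 4 and 2. These genes were chosen by their acetylated counts in the combined list, so the excess of marked peaks is a description. These genes are long, with spans of 91.4 kb (Grm4) to 740 kb (Tenm4), and a peak inside a span need not act on that gene.

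At the other extreme, 171 of the 2063 genes with 5 or more distal ATAC peaks had none acetylated, and 382 had all acetylated. Those with the most unmarked distal peaks, with none acetylated in the combined list, included Nrxn3, Hdac9, Negr1 and Slc25a21. Nrxn3, a neurexin of synapses, had 24, 25 and 21 ATAC peaks in replicates 1, 2 and 3, with none acetylated. Hdac9, a histone deacetylase, had 14, 25 and 17 with none acetylated, and Negr1, a neuronal adhesion protein, had 20, 19 and 15 unmarked and 3, 3 and 2 acetylated. The spans of these genes were 485 kb or longer, and H3K27ac covered between 0% (Nrxn3) and 6.16% (Negr1) of them.

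H3K27ac without an ATAC peak assigned to the gene was longest at D430042O09Rik (133 kb), Ankrd23 (131 kb), Cacna1i (83.0 kb), Tdp1 (73.3 kb) and Col7a1 (72.6 kb). At Ankrd23 and Col7a1 the domain held 12 and 4 ATAC peaks that were assigned to other genes. D430042O09Rik had 2, 8 and 2 acetylated ATAC peaks in replicates 1, 2 and 3, and Cacna1i, a calcium channel gene, had 2, 2 and 2. At these 2 genes the single libraries thus held open sites that the combined list does not.

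Promoters were then compared by sequence in windows from 250 bases before to 50 after a RefSeq transcription start, 21045 windows of 17274 genes. Taking the best window of each gene, 48.0% of the genes had a promoter that was open and acetylated, 13.4% one that was open and unmarked, 7.25% one that was acetylated without ATAC and 31.4% neither. Open windows were rich in CpG whether marked or not. The median CpG count was 23 in the 9900 open and acetylated windows, 18 in the 2674 open and unmarked ones, 4 in the 1963 acetylated ones without ATAC and 3 in the 6508 with neither. From windows with 0 to 4 CpG to those with 30 or more, the open share went from 6.66 to 95.8% and the acetylated share from 21.4 to 83.0%. Among open windows of the combined list the acetylated share was 68.4% at 0 to 4 CpG, 65.7% at 5 to 9 and 85.6% at 30 or more. In the libraries these shares were 67.2 ± 1.10, 65.0 ± 0.590 and 85.7 ± 0.763% (SD, n = 3), so the CpG-poorest open windows were not the least acetylated. The Acan and Gli3 stretches printed above belong to the CpG-rich end with both signals, and those of Hoxd13 and Msx1 show that the same CpG density occurred without the mark.

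**Figure D4:**
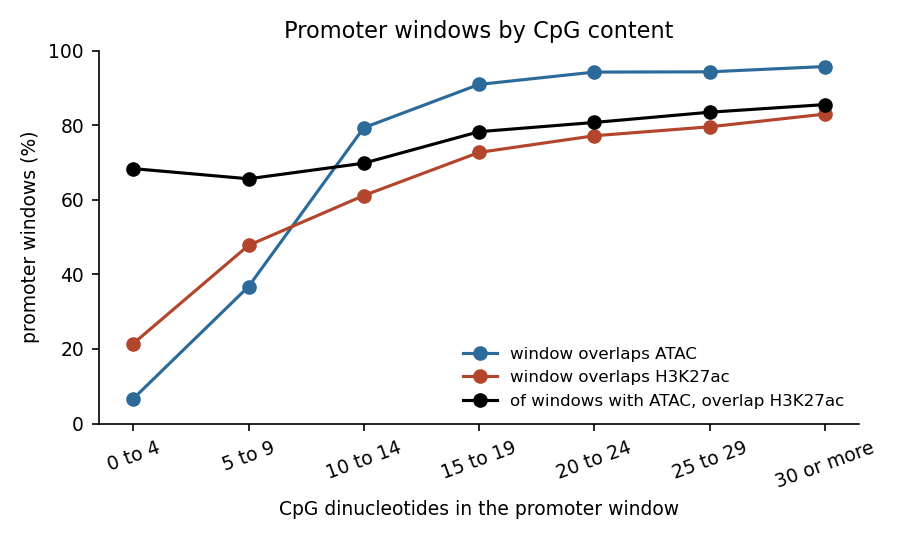
Percent of 21045 promoter windows that overlap a combined ATAC peak or an H3K27ac peak, and percent of the windows with ATAC that overlap H3K27ac, by number of CpG dinucleotides in the window. The open share rises from 6.66 to 95.8%, and the acetylated share of open windows lies between 65.7 and 85.6%.

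Short motifs were counted in the same windows. The letters TATAAA on either strand occurred in 5.57% of open and acetylated windows, 8.15% of open unmarked ones, 11.9% of acetylated ones without ATAC and 25.5% of those with neither, against 12.7% of all windows. The letters GGGCGG, which include a CpG, occurred in 70.5, 60.2, 20.8 and 12.7% in the same order, against 46.7% of all. The letters CCAAT occurred in 37.3, 40.9, 32.7 and 41.1%, against 38.5% of all. A match of letters is a description of the window and not a binding site.

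Of the cartilage genes with a window, 14 of 18 had an open and acetylated promoter, against 48.0% of all genes. Matn1, a matrilin of the cartilage matrix, and Sox5 had a window in H3K27ac without a combined ATAC peak, Pcolce2 one that was open and unmarked, and Epyc, a small proteoglycan, neither. The Sox5 window (chr6:143947107-143947356) lay inside the gene's span of 954 kb and not at its 5′ end. Sox5 had 1 acetylated combined ATAC peak near a gene end, outside this window. Of the limb patterning genes with a window 8 of 18 were open and acetylated and 9 were open and unmarked (13.4% of all genes), among them Msx1, Msx2, Fgf10, Sall1, Meis1 and Meis2. Of BMP and TGF-beta genes 19 of 21 were open and acetylated.

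The classes were next read in tissues that did not define them. Of distal forelimb ATAC peaks with the mark 65.2 ± 6.58% were also open in the MC libraries at E14.5, and of those without it 47.0 ± 7.23% (SD, n = 3). The difference was 18.2 ± 2.64 points and had the same sign in all 3 MC libraries (two-sided exact sign-flip permutation p 0.25, adjusted p 0.25). It was also present at like score: in the lowest quintile of distal score 38.8 ± 6.87 against 27.6 ± 6.55% were open in MC, and in the highest 93.7 ± 2.14 against 84.2 ± 3.80%. In no MC library were 16.3% of the acetylated and 32.2% of the unmarked distal peaks found. In the 2 mandible libraries at E12.5 the shares were 44.2 and 67.6% of acetylated and 22.5 and 64.0% of unmarked distal peaks. The 2 E12.5 libraries thus differed from each other by more than the classes did in replicate 2.

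The mark itself was largely shared with MC. Of acetylated distal peaks 86.7% lay in the combined MC H3K27ac list, and of unmarked ones 26.4%. Near gene ends the shares were 97.1 and 48.2%. Sites also varied within the forelimb: 92.7% of acetylated and 81.6% of unmarked gene-end peaks were found in all 3 forelimb ATAC libraries, and 62.9 and 51.8% of distal ones.

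Forelimb ATAC peaks were also set beside MC peaks, each tissue against its own H3K27ac list. At distal sites the shares were 59.0, 55.6 and 58.6% in the forelimb and 63.6, 73.0 and 67.6% in MC, which did not overlap (means 57.7 ± 1.84 and 68.1 ± 4.69%, difference -10.4 points, two-sided exact permutation p 0.1, adjusted p 0.25). Near gene ends the means were 74.9 ± 1.37 and 85.5 ± 0.623% (difference -10.6 points, two-sided exact permutation p 0.1, adjusted p 0.25). The 2 H3K27ac lists differ in their lower limit: the lowest total signal was 25799 in the forelimb and 16925 in MC, and the lists held 39914 and 47549 peaks. With the same number of strongest H3K27ac peaks in both tissues the distal difference was -6.98 points (two-sided exact permutation p 0.1). The ATAC lists differ in length too. Those of MC replicates 1, 2 and 3 held 54192, 43205 and 49872 peaks, and the longer the list, the lower was the distal share. In the forelimb the longest list had the lowest share. With the same number of best-scored ATAC peaks from every library the distal difference was -8.92 points (two-sided exact permutation p 0.1). The part of H3K27ac limits and ATAC list length in the difference was not tested further.

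Chromosome X stood apart from the autosomes. H3K27ac peaks covered 1.64% of it, against 13.4% (chromosome 3) to 25.4% (chromosome 11) of the autosomes. Of its distal ATAC peaks 29.4% of 439 were acetylated, and the autosomes ranged from 53.6% (chromosome 3) to 70.0% (chromosome 7). In the libraries the distal share on X was 27.8, 25.2 and 28.5% in replicates 1, 2 and 3, and the gene-end share 43.4, 41.0 and 44.5%. The MC list covered 1.88% of X, so the low cover was common to both tissues. On the autosomes alone the shares were 75.9 ± 1.34% near gene ends and 58.1 ± 1.84% at distal sites (SD, n = 3), close to those with X.

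**Figure D5:**
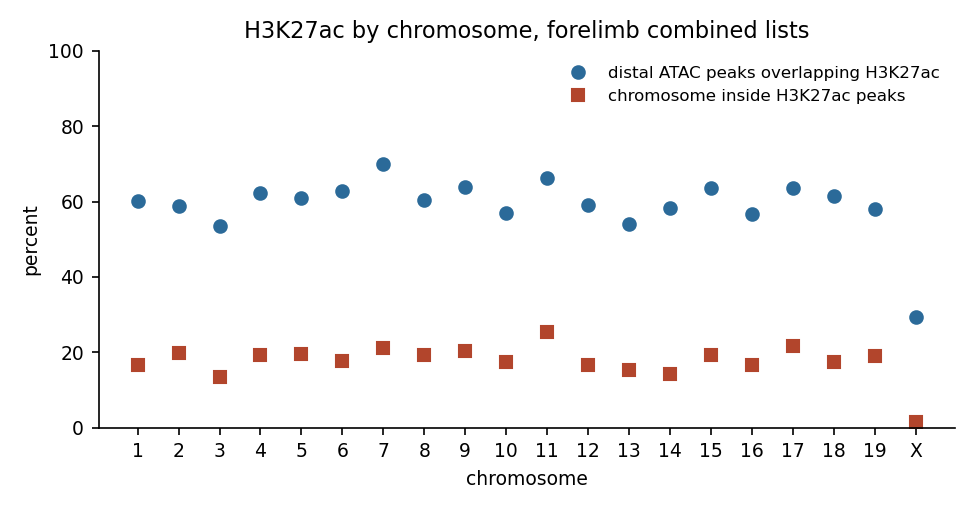
Percent of distal combined forelimb ATAC peaks that overlap H3K27ac (circles) and percent of each chromosome's extent inside H3K27ac peaks (squares), for the autosomes and X. X lies lowest in both, at 29.4 and 1.64%.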

How the data were processed

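ATAC-seq and H3K27ac CUT&Tag peak lists of forelimb cartilage were analysed, with Meckel's cartilage and E12.5 mandible lists for comparison. The tools that the submitters' processing notes name are Trim Galore, Bowtie2, SAMtools, Genrich (ATAC) and SEACR (CUT&Tag), with the build mm10; versions and thresholds are not given in the sources used here. The deposited ATAC lists give the authors' peak score, which is an area (1000 times score over width is the list's integer column) and starts at 200, and a −log10 p. The deposited H3K27ac lists give the authors' total signal and highest signal per peak. The combined lists are the authors' own and have no replicates. Hi-C and 4C samples were not analysed here.

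Overlaps of at least 1 bp were counted on the 19 autosomes and X with Python 3.11.15, numpy 2.4.6, pandas 2.3.3 and scipy 1.17.1, and figures were drawn with matplotlib 3.10.9. The interval steps were tested on simulated intervals. Positions of 21631 protein-coding genes came from RefSeq GRCm38.p6 (mm10). Promoter windows matched 17274 of these genes; none lie on chromosome 18, and Col2a1, Sox9 and Tbx5 have none. Scores and signals were ranked within a list only. Libraries were compared by exact sign-flip and exact permutation tests (two-sided), adjusted by Benjamini-Hochberg over 10 tests. Intervals are 95% Wilson intervals and cover counting error only.

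The members, gene lists and tests were chosen with earlier results of these data known. Named genes are a panel of 30, the 5 genes with the most acetylated distal ATAC peaks, the 5 with the most distal peaks and none acetylated among those with at least 5, the 5 with the most H3K27ac and no ATAC, and members of a list, those named in a list's paragraph having been chosen after their values were seen. Named regions are the 5 of best worst score rank per class and the 5 H3K27ac peaks of highest total signal with and without ATAC. Alternatives were other overlap rules, the upper 50% of each list, equal numbers of peaks, and a gene-end limit of 2.5 kb or the transcription start. Others were assignment within 100 kb, other rankings, and libraries left out in turn. Some genes and regions that this rule names are not reported here.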

Additional observations from a re-analysis of the deposited data

How the results depend on the processing

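No alternative reversed a direction, and none of the tests could pass 0.05 under any of them. Of 92 alternative values of the main results 13, all of values with no test, moved by more than their spread or counting interval. The other 79 stayed within that spread or, where there was a test, kept the sign of their mean and their side of the threshold. Their size was not always kept. The score percentile difference fell from 10.0 to 2.66 by score per bp. By −log10 p it was 3.30 ± 5.72, and the 3 libraries did not all go the same way. Forelimb minus MC went from -10.4 to -6.98 points with equal numbers of H3K27ac peaks, and to -8.92 with equal numbers of best-scored ATAC peaks. With the upper 50% of H3K27ac peaks by total signal the acetylated share was 46.3% at distal and 56.6% at gene-end ATAC peaks, and 62.3% of H3K27ac peaks held ATAC. With the upper 50% of ATAC peaks by score these were 70.4, 78.8 and 20.7%. With combined ATAC peaks found in all 3 libraries they were 64.6, 77.4 and 38.1%, and 63.3% of H3K27ac peaks held ATAC of any library. A gene-end limit of 2.5 kb gave 59.1% at distal peaks, and transcription starts, chosen after seeing the data, gave 76.0% at gene ends. The single H3K27ac libraries met 2.63% of ATAC peaks by midpoint. Rankings by −log10 p and by score per bp and equal numbers of H3K27ac peaks were also chosen after seeing the data.

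Leaving out 1 ATAC library gave gene-end minus distal shares of 16.9 to 17.3 points, score percentile differences of 9.27 to 10.6, and width differences of 86.5 to 99.5 bp. For H3K27ac peaks it gave 32.8 to 35.9 points, 2520 to 2587 bp and 29.3 to 29.7 percentile points. Forelimb minus MC was -12.6 to -7.91 points, and the difference in sites also open in MC was 16.7 to 19 points. With the replicate number as a block, forelimb minus MC was -10.4 ± 6.46 points (exact sign-flip permutation p 0.25). The correlations of same-numbered libraries were 0.0641, 0.0578 and 0.0314, and those of other-numbered ones lay between -0.0687 and 0.0208. Each library thus correlated best with its own number, though all values were small. The labels do not say what a number shares. The main comparison left the numbers unpaired, and the block value is the paired one. The lists give no depth, and an unlisted site cannot be told from an undetected one.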

Other observations

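The highest ranked ATAC peaks were partly at repeated sequence. The distal acetylated peak of best rank in all 3 libraries, chr17:39842951-39848828, touched Rn18s-rs5, annotated as a pseudogene of 18S ribosomal RNA, and held the highest signal of the H3K27ac list, 49. The next 2 lay in Sfi1 (chr11:3184142-3190683 and chr11:3190833-3197089), a centrosome gene, followed by peaks at chr8:4676897-4679232 and in Pfkfb3 (chr2:11500534-11504069), a regulator of glycolysis. Near gene ends the best ranked acetylated peaks were at Mroh2a and Hjurp, Jun, Gm20783 and Trip10. Jun (chr4:95046755-95054001) encodes a subunit of the AP-1 transcription factor.

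The best ranked peaks without the mark included one beside Ang and Rnase4 (chr14:51088167-51091741) that touched 3 tRNA genes, and others at Msantd4, Hspa2, Lor and Vmn1r4. At distal sites they were chr1:7396916-7398812, and peaks in Clcn4 (chr7:7297902-7299859), Lrif1 (chr3:106721249-106722713) and Kcnn2, and near Tmem161b (chr13:84347808-84349922). The lowest score percentile of these 10 unmarked peaks in any of the 3 libraries was 98.6. No explanation of these ranks was tested.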
